A study of Homo sapiens with 4 samples.

Results

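The 3 Pellino ligases (PELI1, PELI2 and PELI3) and the IRAK-TRAF6 relay on which they act (MYD88, IRAK4, IRAK1, TRAF6, TAB1, TAB2 and MAP3K7) were examined in RNA-seq data of HaCaT cells after knockdown of ALKBH5. These 10 genes were taken by their gene name from the 58735 genes of the deposited tables. HaCaT (HaCAT in the labels) is an established line of human keratinocytes. Wild-type cells of this 1 line, grown in 6-well plates, were transfected with a lipid reagent and either a control siRNA (siControl) or siRNA against ALKBH5 (siALKBH5), so both groups share the transfection. ALKBH5 is a demethylase that removes N6-methyladenosine (m6A) from RNA. Each group has 2 libraries of poly-A RNA. The labels give neither the time after transfection nor which siRNA was sequenced (the study marks its RNA-seq tracks with ALKBH5-si2) and do not say whether the duplicates were separate cultures. The p-values therefore measure only the spread between these libraries.

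Pellino proteins are RING-type E3 ubiquitin ligases that bind phosphorylated IRAK kinases through an FHA domain. When a Toll-like or interleukin-1 receptor is engaged, the adaptor MYD88 gathers IRAK4, which activates IRAK1, and TRAF6 then builds ubiquitin chains to which TAB2 carries the kinase TAK1 (encoded by MAP3K7) together with TAB1. TAK1 switches on the IKK complex and the MAP kinases, and through them NF-kB and AP-1. In keratinocytes this route answers interleukin-1, which the epidermis stores and releases on injury.

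Total counts on genes were between 16017502 and 18837807 per library, and all 10 genes passed the expression filter of edgeR, as did 15075 of the 27826 genes with counts. Levels are given as CPM, which are counts scaled to a common library size after TMM scaling of the library totals. The common biological coefficient of variation was 0.0253. ALKBH5, the targeted gene, had 1512 and 1576 counts (siControl) against 956 and 816 (siALKBH5), a log2 fold change of -0.85. All 12 keratinocyte markers had over 10 counts in each library. Their summed level was 19062 to 19487 CPM in siControl and 24861 to 24934 CPM in siALKBH5, and its part in the results below was not tested. The sum rose mainly with KRT5 (log2 fold change 0.68), KRT6A (0.63) and KRT14 (0.22), while 7 of the 12 markers had values from -0.16 (PERP) to -0.040 (DSG3). The 6 fibroblast markers (21.9 to 22.8 CPM in siControl and 18.7 to 19.1 CPM in siALKBH5; COL1A2 and PDGFRA at 0, COL1A1 -0.043, DCN -1.25 and LUM -1.08 on the log2 scale), the 4 melanocyte markers (2.72 to 3.23 and 3.16 to 3.89 CPM; TYR at 0), the 3 endothelial markers (32.5 and 35.0 to 35.5 CPM; PECAM1 with at most 1 count, VWF 0.51 and CDH5 -0.69 on the log2 scale) and the 5 leukocyte markers (0.248 to 0.556 and 0.182 to 0.589 CPM; CD163 at 0) were low. These sums were low beside that of the keratinocyte markers. The fibroblast and endothelial sums were above the level of PELI3 (13.2 CPM in siControl), so they were not low beside all of the 10 genes. Mitochondrial genes took 10.2% of the counts of each siControl library and 9.63% and 9.64% of those of siALKBH5.

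The Pellino transcripts differ in the bases that the study used for its RNA pull-down. Its 50-base probe, which is held by PELI2 alone among the genes of GENCODE 29, starts at base 1070 of the 1263 coding bases of PELI2 (numbered from the start codon, with the stop codon included). It carries 2 m6A motifs in the last of 6 exons, with their A at coding bases 1080 and 1110. The motif is RRACH, searched on the sense strand of the transcripts as its 12 words of 5 letters: a purine (A or G) at both of the opening places, then AC, and at the end any base but G. The windows of 21 bases around these positions of PELI2 and the bases aligned to them by codon in PELI1 and PELI3 are shown to compare the paralogs (GRCh38, written 5′ to 3′ on the strand of the gene, with the motif or its counterpart in capitals).
PELI2, base 1080 (chr14:56296973-56296993, plus strand): tagacgcaGGACCgccaactc
PELI1 counterpart (chr2:64094875-64094895, minus strand): tggacgccGGCCCtccaaccc
PELI3 counterpart (chr11:66475974-66475994, plus strand): tggaccctGGGCCgcctagcc
PELI2, base 1110 (chr14:56297003-56297023, plus strand): ctccctgtGGACAcgtgtgct
PELI1 counterpart (chr2:64094845-64094865, minus strand): gcccgtgtGGGCAtgtgtgtt
PELI3 counterpart (chr11:66476004-66476024, plus strand): caccttgcGGCCAcgtctgct

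None of the 4 counterparts in PELI1 and PELI3 is one of the 12 words, which says only that these letters are not in these frames. Around base 1080, 5 of the 21 bases of PELI1 and 7 of those of PELI3 differed from PELI2, and around base 1110 these numbers were 6 and 5. Over the whole coding sequence, PELI2 shared 81.8% of aligned residues and 71.4% of aligned bases with PELI1, and 71.9% and 66.9% with PELI3. PELI1 and PELI3 were the least alike, with 70.7% of residues and 63.6% of bases. The coding sequences hold 16 RRACH words in PELI2 (12.67 per kilobase), 19 in PELI1 (15.12) and 17 in PELI3 (12.71), beside a median of 14.91 per kilobase over 12482 tested genes. No m6A measurement was analysed here.

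Of the 3 Pellino genes, PELI2 fell to 51.3% of its control level, PELI3 to 79.7%, and PELI1 had 104%. PELI2 (ENSG00000139946, chr14:56117814-56301526, plus strand) had 501 and 538 counts (siControl) against 262 and 284 (siALKBH5). These are 31.1 and 29.9 CPM in siControl and 14.0 and 17.3 CPM in siALKBH5. Both siALKBH5 libraries lay far below both siControl libraries, and the siALKBH5 libraries differed more from each other than the siControl libraries did (15.6 ± 2.28 against 30.5 ± 0.843 CPM, SD, n = 2 each). The log2 fold change was -0.97 (standard error, SE, 0.096, 95% interval -1.16 to -0.77, adjusted p = 4.0e-10 by edgeR's quasi-likelihood test with Benjamini-Hochberg adjustment). Of all 15075 genes tested, 1.92% had a lower fold change. The study picked PELI2 as a target with the help of these same libraries, so the fall of PELI2 here is not independent evidence.

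PELI3 (ENSG00000174516, chr11:66466327-66477337, plus strand), like its paralogs a ligase that binds IRAK kinases, fell by less than PELI2. It had 206 and 246 counts (siControl) against 185 and 184 (siALKBH5), or 12.8 and 13.7 CPM against 9.90 and 11.2 CPM. The groups did not overlap, and their nearest libraries were close to each other. The log2 fold change of PELI3 was -0.33 (SE 0.12, 95% interval -0.58 to -0.080, adjusted p = 0.033 by edgeR's quasi-likelihood test). A lower fold change was seen in 14.9% of all genes tested. The call was lost with DESeq2 (adjusted p = 0.161), without siControl replicate 2 (log2 fold change -0.28, adjusted p = 0.18 by edgeR) and without siALKBH5 replicate 1 (-0.24, adjusted p = 0.237 by edgeR). Exons of the antisense gene AP002748.3 cover 15.7% of the exon bases of PELI3, and those of MRPL11 on the opposite strand cover 3.0%. Whether reads were counted by strand is not given in the sources used here, so the level of PELI3 is uncertain where these genes overlap.

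PELI1 (ENSG00000197329, chr2:64092652-64144454, minus strand), best known for its roles in Toll-like receptor and T cell signalling, did not pass the test. It had 286 and 347 counts (siControl) against 347 and 327 (siALKBH5), or 17.8 and 19.3 CPM against 18.6 and 19.9 CPM. The libraries of the groups were interleaved. The log2 fold change was 0.05 (95% interval -0.15 to 0.25, adjusted p = 0.73 by edgeR's quasi-likelihood test).

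With edgeR and all libraries, the paralogs differed in response by more than their fitted errors in each of the 3 pairs. The study picked PELI2 with the help of these libraries, so the pairs with PELI2 are not independent evidence. The log2 fold change of PELI2 lay 1.02 below that of PELI1 (difference -1.02, SE 0.137, 95% interval -1.30 to -0.74) and 0.64 below that of PELI3 (difference -0.64, SE 0.157, 95% interval -0.96 to -0.32). PELI1 lay 0.38 above PELI3 (SE 0.158, 95% interval 0.061 to 0.70), but this interval took in 0 with DESeq2 and without siControl replicate 1, siControl replicate 2 or siALKBH5 replicate 1, with differences of 0.38, 0.37, 0.39 and 0.34.

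**Figure D1:**
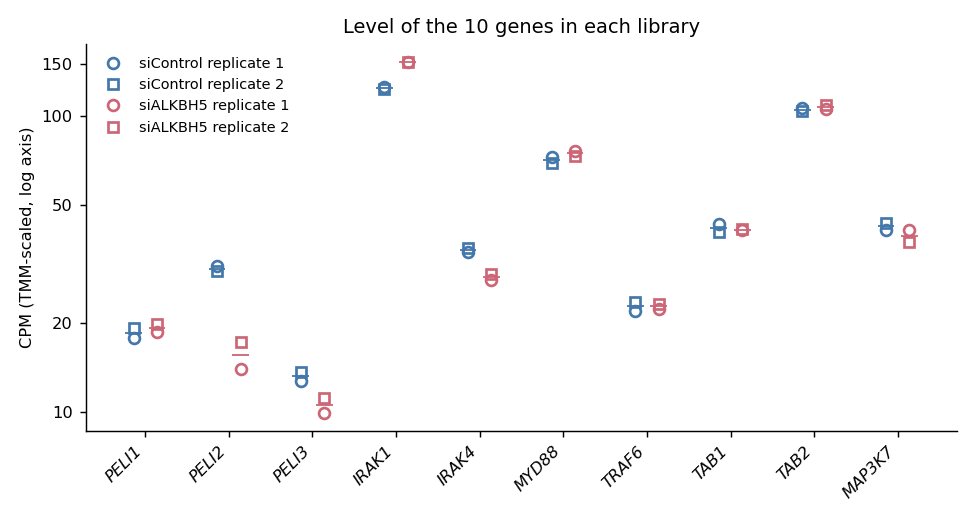
Level of each of the 10 genes in the 4 libraries, in CPM on a log axis. Circles are replicate 1, squares are replicate 2, blue is siControl, red is siALKBH5, and short lines are group means. PELI2 was at 31.1 and 29.9 CPM in siControl and 14.0 and 17.3 CPM in siALKBH5, whereas the libraries of TRAF6, TAB1 and TAB2 were interleaved.

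To compare the ligases with each other, levels per length were recomputed as FPKM from the counts, the listed gene length and the scaled library total. By the listed lengths, PELI2 was the most abundant Pellino transcript in siControl, at 4.86 ± 0.134 FPKM (SD, n = 2). Its libraries (4.95 and 4.76 FPKM) lay a little above those of PELI1 (4.30 and 4.68 FPKM, mean 4.49 ± 0.263). In siALKBH5, PELI2 was at 2.49 ± 0.364 FPKM and PELI1 at 4.66 ± 0.221 FPKM. PELI3 was at 3.37 ± 0.160 FPKM in siControl and 2.69 ± 0.230 FPKM in siALKBH5, where its libraries overlapped with those of PELI2. The places of the 3 ligases, this overlap and their shares depend on the length used. PELI1, PELI2 and PELI3 have listed lengths of 4125, 6278 and 3926 bases. Their principal transcripts have 3750, 5909 and 2783 bases.

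The mix of Pellino transcripts, by the listed lengths, shifted accordingly. PELI2 made up 39.6% and 36.9% of the summed Pellino FPKM in siControl and 24.1% and 26.4% in siALKBH5. The share of PELI1 was 34.4% and 36.2% in siControl and 48.6% and 46.3% in siALKBH5, and that of PELI3 lay between 26.0% and 27.4% in all 4 libraries. The ratio of PELI2 to PELI1 was 1.15 and 1.02 in siControl and 0.496 and 0.571 in siALKBH5. The sum of the 3 genes was 12.5 and 12.9 FPKM in siControl and 9.26 and 10.4 FPKM in siALKBH5, so it was lower in both siALKBH5 libraries. In bulk RNA, fewer cells that express a gene and less RNA per cell cannot be told apart.

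**Figure D2:**
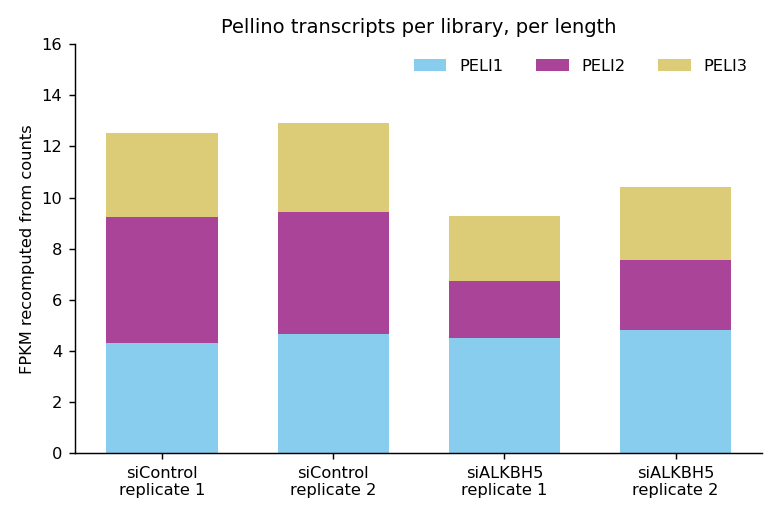
FPKM recomputed from counts and the listed gene lengths for PELI1, PELI2 and PELI3, stacked for each of the 4 libraries on an axis that starts at 0. The stack reached 12.5 and 12.9 FPKM in siControl and 9.26 and 10.4 FPKM in siALKBH5, and the PELI2 segment was the one that shrank most.

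The kinases that Pellino ligases bind moved in opposite directions. IRAK1 (ENSG00000184216, chrX:154010500-154019980, minus strand), the kinase that carries the signal from the receptor complex to TRAF6, had 2017 and 2215 counts (siControl) against 2847 and 2502 (siALKBH5). These are 125 and 123 CPM in siControl and 152 CPM in each siALKBH5 library. Both siALKBH5 libraries were higher, by far more than the libraries of a group differed (124 ± 1.47 and 152 ± 0.277 CPM, SD, n = 2 each). The log2 fold change of IRAK1 was 0.29 (SE 0.037, 95% interval 0.22 to 0.37, adjusted p = 9.4e-08 by edgeR's quasi-likelihood test), or 123% of control. Among all 15075 genes tested, 82.6% had a lower fold change, so the size of this rise was not unusual.

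IRAK4 (ENSG00000198001, chr12:43758944-43789543, plus strand), which phosphorylates IRAK1, fell. It had 559 and 643 counts (siControl) against 522 and 483 (siALKBH5), or 34.7 and 35.7 CPM against 27.9 and 29.4 CPM. The groups did not overlap and were further apart than replicate libraries were. The log2 fold change was -0.30 (SE 0.075, 95% interval -0.45 to -0.15, adjusted p = 0.0017 by edgeR's quasi-likelihood test), or 81.4% of control. A lower fold change was seen in 16.9% of all genes tested. Per length, IRAK1 was the most abundant of the 10 genes in every library. The ratio of IRAK1 to IRAK4 FPKM was 5.08 and 4.85 in siControl and 7.67 and 7.29 in siALKBH5.

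The adaptor and the TAK1 module did not pass the test. MYD88, the adaptor of Toll-like and interleukin-1 receptors, was at 72.5 and 69.3 CPM in siControl and 76.2 and 73.2 CPM in siALKBH5. Its siALKBH5 libraries were above its siControl libraries by a small margin (log2 fold change 0.08, 95% interval -0.024 to 0.18, adjusted p = 0.24 by edgeR's quasi-likelihood test). TRAF6, the ligase that makes lysine-63 chains, was at 21.9 and 23.6 CPM in siControl and 22.3 and 23.2 CPM in siALKBH5. Its libraries were interleaved and its 95% interval of the log2 fold change was -0.18 to 0.18.

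TAB1, an activator of TAK1, was at 43.0 and 40.5 CPM in siControl and 41.1 and 41.5 CPM in siALKBH5 (95% interval of the log2 fold change -0.15 to 0.12). TAB2, the chain-binding partner, was at 106 and 103 CPM in siControl and 105 and 108 CPM in siALKBH5 (95% interval -0.060 to 0.11). MAP3K7, which encodes TAK1, was at 41.2 and 43.5 CPM in siControl and 41.2 and 37.6 CPM in siALKBH5 (95% interval -0.24 to 0.036). The groups overlapped for TAB1 and TAB2, and 1 siALKBH5 library of MAP3K7 lay level with a siControl library. The adjusted p-values by edgeR's quasi-likelihood test were 0.99 for TRAF6, 0.90 for TAB1, 0.68 for TAB2 and 0.25 for MAP3K7. A change of the size seen for PELI2 is outside the intervals of all these genes.

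**Figure D3:**
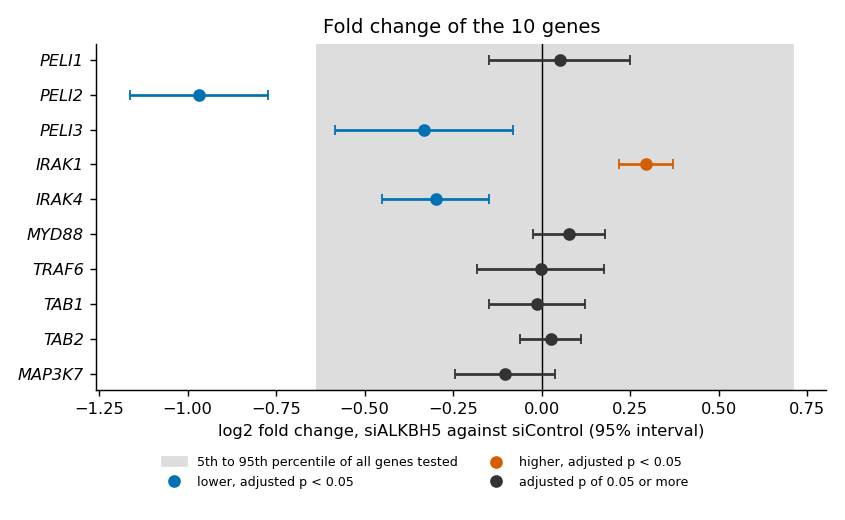
Log2 fold change of siALKBH5 against siControl for the 10 genes, with 95% intervals from edgeR's quasi-likelihood model. The grey band spans the 5th to the 95th percentile of all 15075 genes tested (-0.63 to 0.71), and PELI2 at -0.97 is the gene outside it.

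In all, 3 of the 10 genes were called lower by edgeR, with adjusted p below 0.05 (PELI2, PELI3 and IRAK4), beside 17.3% of all genes tested, and 1 was higher (IRAK1), beside 19.3%. With an absolute log2 fold change of 1 or more required as well, 0 of the 10 genes were lower, beside 1.3% of all genes, and 0 were higher, beside 1.62%. The study's methods state this fold threshold for its RNA-seq. PELI2 was just short of it here, at -0.97 with edgeR and -0.96 with DESeq2. Over the 4 pairs of 1 siALKBH5 and 1 siControl library, its log2 ratio ran from -1.15 to -0.79. The study's own analysis, whose cutoff a figure legend words differently, kept PELI2 among its lower genes. The siALKBH5 libraries were both below the siControl libraries for 3 genes, beside 33.5% of all genes, and both above for 2 genes, IRAK1 and MYD88, beside 32.8%. The median log2 fold change of the 10 genes was -0.0086 and that of all genes tested was -0.0081. Read against the shares of all genes, these counts do not set the 10 genes apart. PELI2 and IRAK4 were the 2 genes lower without siControl replicate 2, without siALKBH5 replicate 1, with DESeq2 and without a filter on low counts, where the shares of all genes were 12.6%, 12.9%, 10.9% and 8.59%.

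Ordered per length, the genes ran in siControl from IRAK1 (31.0 ± 0.367 FPKM) through MYD88 (17.8 ± 0.574) and TAB2 (17.5 ± 0.346), whose libraries overlapped, to TAB1 (9.37 ± 0.396), IRAK4 (6.26 ± 0.131) and MAP3K7 (5.86 ± 0.226). PELI2, TRAF6 (4.67 ± 0.249 FPKM) and PELI1 followed, with TRAF6 overlapping both of its neighbours, and PELI3 was last (all SD, n = 2). In siALKBH5, IRAK1 was at 38.0 ± 0.0693 FPKM, and the order of MYD88, TAB2 and TAB1 was kept. IRAK4 (5.09 ± 0.176 FPKM) came after MAP3K7 (5.45 ± 0.359 FPKM) with overlapping libraries, and TRAF6 (4.67 ± 0.129) overlapped with PELI1. PELI2 moved to the last place, overlapping with PELI3. These orders hold for the listed lengths only, and the places of neighbours depend on the length used. IRAK4 and MAP3K7 have listed lengths of 5629 and 7227 bases, and principal transcripts of 4280 and 4911 bases.

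**Figure D4:**
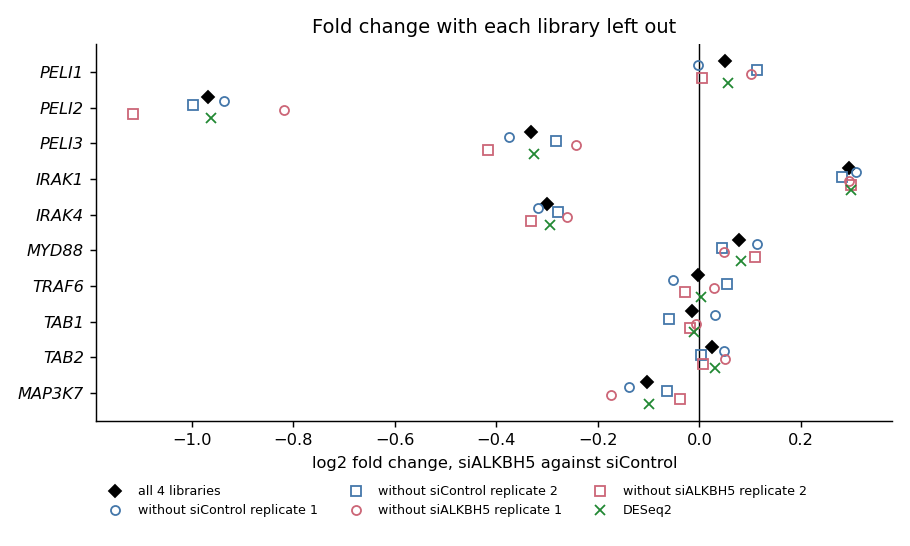
Log2 fold change of the 10 genes with all 4 libraries (black), with each library left out in turn (blue without a siControl library, red without a siALKBH5 library, circle for replicate 1 and square for replicate 2) and with DESeq2 (green crosses). PELI2 ranged from -1.12 to -0.82 with a library left out, IRAK1 from 0.28 to 0.31 and IRAK4 from -0.33 to -0.26, while PELI1, TRAF6 and TAB1 crossed 0.

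Around these genes, 93 other genes of the pathway were examined in 6 groups, and 76 of them had enough counts to be tested. Of the 76, 20 were called lower and 8 higher by the same test, beside 17.3% and 19.3% of all genes. Their median log2 fold change was -0.040. With DESeq2, 13 were lower and 6 were higher, beside 10.9% and 15.5% of all genes with an adjusted p in that fit. None of the groups was tested as a set. The first group was the receptors, of which 10 of 18 were tested, 4 were lower and 0 were higher (17.3% and 19.3% of all genes). Their median was -0.26. IL1R1, the signalling receptor of interleukin-1, had 220 and 207 counts (siControl) against 156 and 130 (siALKBH5), a change of -0.62 on the log2 scale (SE 0.135, adjusted p = 3.6e-04 by edgeR's quasi-likelihood test). TLR3, which senses double-stranded RNA, had 410 and 502 counts (siControl) against 386 and 303 (siALKBH5) (-0.45, SE 0.0906, adjusted p = 1.7e-04 by edgeR). IL1RAP, the co-receptor of IL1R1, and SIGIRR, an inhibitory receptor, fell by less (-0.26 and -0.20, adjusted p = 0.0029 and 0.012 by edgeR). IL1RAP lost its call without siALKBH5 replicate 1 (-0.16), and SIGIRR with DESeq2, without siControl replicate 2 (-0.17) and without siALKBH5 replicate 2 (-0.13).

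Among the adaptors, kinases and inhibitors at the receptor, 8 of 10 were tested, 2 were lower and 0 were higher (17.3% and 19.3% of all genes), with a median of 0.032. UNC93B1, the chaperone of endosomal Toll-like receptors, changed by -0.19 on the log2 scale (SE 0.040, adjusted p = 2.6e-04 by edgeR). SARM1, a TIR-domain enzyme that can inhibit the pathway, had 93 and 94 counts (siControl) against 84 and 44 (siALKBH5) (-0.60, adjusted p = 0.024 by edgeR), so 1 library carried most of the difference. It was -0.28 without siALKBH5 replicate 2, -1.03 without siALKBH5 replicate 1 and -0.52 without siControl replicate 1, and its call was lost without the first and the last of these and with DESeq2. The other IRAK kinases were scarce. IRAK2 had 16 and 23 counts (siControl) against 25 and 39 (siALKBH5) (log2 fold change 0.68, adjusted p = 0.16 by edgeR, 0.23 without siALKBH5 replicate 2 and 1.05 without siALKBH5 replicate 1, where the adjusted p was 0.0608), and IRAK3, an inhibitory relative, had 3 counts in each library and was not tested.

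Of the 20 ubiquitin enzymes and regulators of ubiquitin chains, all tested, 3 were lower and 4 were higher (17.3% and 19.3% of all genes), with a median of 0.048. BIRC2, a ligase of the TNF receptor complex, had 1455 and 1686 counts (siControl) against 1351 and 1218 (siALKBH5) (log2 fold change -0.33, SE 0.047, adjusted p = 6.4e-07 by edgeR). The higher genes included USP4, a deubiquitinase that acts on TRAF6 and TAK1, at 461 and 573 counts (siControl) against 808 and 674 (siALKBH5) (0.48, SE 0.073, adjusted p = 2.9e-06 by edgeR). ZC3H12A, an RNase that degrades inflammatory mRNAs, and TRAF3, a regulator of the MYD88 complex, were higher by 0.39 each (adjusted p = 3.6e-04 and 0.0060 by edgeR). TRAF3 lost its call with both settings of limma (adjusted p = 0.0764 and 0.0775).

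Of the 14 genes of the TAK1-IKK-MAPK relay, all tested, 2 were lower and 1 was higher (17.3% and 19.3% of all genes), with a median of 0.015. The kinase gene MAP3K8 had a log2 fold change of -0.33 and MAPK8, which encodes JNK1, of -0.29 (adjusted p = 2.4e-04 and 0.0063 by edgeR), and MAPK14, which encodes p38 alpha, was higher by 0.20 (adjusted p = 0.0015 by edgeR). MAPK8 lost its call with DESeq2, without siControl replicate 2 (-0.22) and without siALKBH5 replicate 2 (-0.21). TAB3, the relative of TAB2, had a log2 fold change of 0.08 (adjusted p = 0.34 by edgeR). IKBKG, the ubiquitin-binding subunit of the IKK complex, had 0.26 (adjusted p = 0.13 by edgeR), and its reads could be split with a near-identical pseudogene.

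Of 13 other reported partners of Pellino proteins, 12 were tested, 5 were lower and 1 was higher (17.3% and 19.3% of all genes), with a median of -0.084. RIPK3, a kinase of necroptosis, had 96 and 116 counts (siControl) against 60 and 93 (siALKBH5) (log2 fold change -0.50, adjusted p = 0.047 by edgeR). This call was lost with DESeq2, without siControl replicate 2 (-0.44) and without siALKBH5 replicate 1 (-0.13), and without siALKBH5 replicate 2 the value was -0.95. MAP3K14, the kinase of the non-canonical NF-kB route, had -0.40, IRF7, a transcription factor of the interferon response, -0.31, and SMAD6, an inhibitor of BMP signalling, -0.24 (adjusted p = 0.0017, 0.0026 and 2.1e-05 by edgeR).

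Of 18 inducible target genes of NF-kB and AP-1, 12 were tested, 4 were lower and 2 were higher (17.3% and 19.3% of all genes), with a median of -0.19. FOS, a subunit of AP-1, had 265 and 287 counts (siControl) against 133 and 108 (siALKBH5). Its log2 fold change was -1.24 (SE 0.13, adjusted p = 1.2e-09 by edgeR), which made it the single gene of the 6 groups past both thresholds. Of the chemokine genes, CXCL1 and CCL2 were called, in opposite directions, CXCL8 had a log2 fold change of -0.03 (adjusted p = 0.94 by edgeR), and CXCL2, CXCL3 and CCL20 had too few counts to be tested. CXCL1, which attracts neutrophils, had 134 and 177 counts (siControl) against 108 and 98 (siALKBH5) (-0.63, SE 0.154, adjusted p = 0.0013 by edgeR), and CCL2, which attracts monocytes, had 47 and 54 counts (siControl) against 102 and 86 (siALKBH5) (0.85, SE 0.206, adjusted p = 0.0011 by edgeR). IER3, an early response gene, was higher by 0.30 (adjusted p = 0.010 by edgeR), a call that was lost with DESeq2 and without siControl replicate 2 (0.13).

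**Figure D5:**
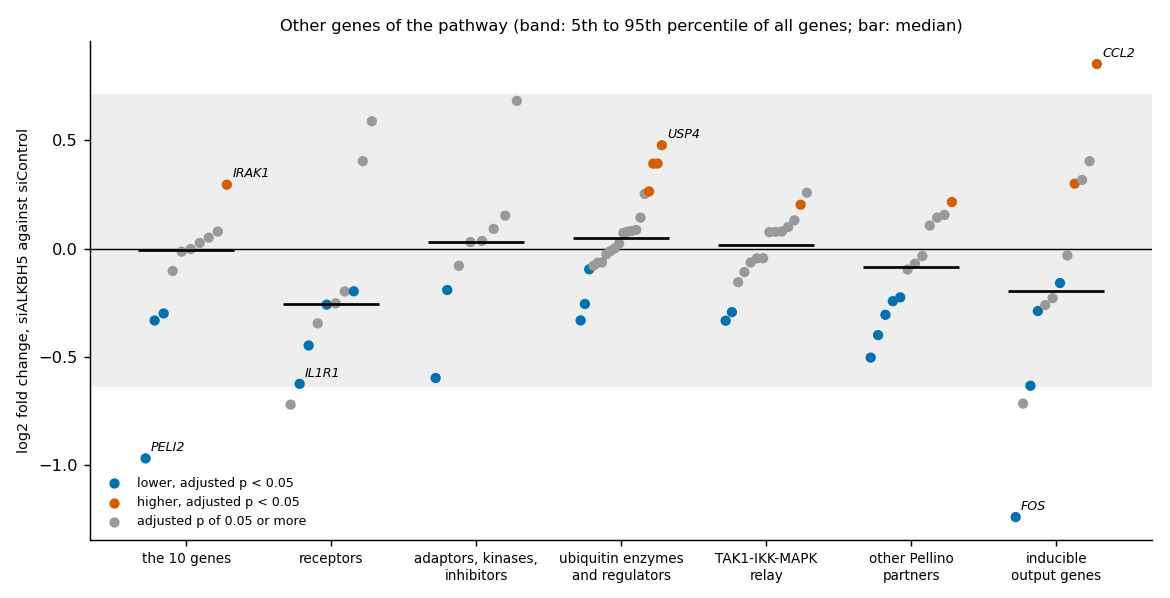
Log2 fold change of siALKBH5 against siControl for the 10 genes and the 6 other groups of the pathway, 1 point per tested gene, blue for lower and orange for higher calls (adjusted p below 0.05), with bars at the medians. The grey band spans the 5th to the 95th percentile of all genes tested (-0.63 to 0.71), and PELI2, FOS and CCL2 are called genes outside it.

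The siRNAs themselves were searched for in these transcripts, since the seed of an siRNA (bases 2 to 8 of a strand) can pair with other mRNAs. The study lists a pair of siRNAs against ALKBH5, which match the coding sequence of ALKBH5 at chr17:18184635-18184653 (ALKBH5-si1) and chr17:18184809-18184827 (ALKBH5-si2) on the plus strand of GRCh38. Their antisense strands are shown with the seeds in capitals.
ALKBH5-si1 antisense: uCGCCGAAgaaguacuugu
ALKBH5-si2 antisense: uAGUCGUUgaugacggcgc

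The seed site of the first is TTCGGCG, which was in the longest annotated 3′ untranslated region of 0.45% of 12461 tested genes, and that of the second is AACGACT, which was in 1.59%. The sense strands give GTACTTG (9.57%) and GACGGCG (1.0%). None of these sites was in the longest annotated 3′ untranslated region of any of the 10 genes, 0 of 10, which says only that these letters are not in these regions.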

How the data were processed

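Poly-A RNA of 2 siControl and 2 siALKBH5 libraries was sequenced. The submitters' processing notes name HISAT2 2.0.5, featureCounts 1.5.0-p3, DESeq2 1.20.0 and hg38. The authors deposited raw counts per gene, not normalized, in 2 tables of 1 siControl and 1 siALKBH5 library each. The deposited FPKM had been scaled per table and were not used, and neither were the columns of fold changes and p-values of 1 library against 1. All 58735 genes have the coordinates of GENCODE 29. Counts were tested over all genes in R 4.3.3 by the quasi-likelihood test of edgeR 4.0.16 (defaults of filterByExpr, TMM, glmQLFit, glmQLFTest, no covariates, Benjamini-Hochberg adjustment). Standard errors come from the same model. With 4 libraries there are 3 splits, so no permutation could give a p under 0.333. The steps were tested on simulated data, drawn with the dispersions that edgeR had fitted. In 200 genes of at least 1 CPM, absolute log2 fold changes of 1 or 2 were planted. There, edgeR called 181 of 199 changed genes among 14806, with 15 false calls, and DESeq2 161 of 200 among 15075, with 0 false calls. Most genes called in the real data changed by less, so these numbers do not give the sensitivity for such changes. Alternatives were DESeq2 1.42.0, limma 3.58.1 on the log2 of recomputed FPKM plus 1 or 0.1, other scalings and filters, the replicate block and each library left out. The members and gene lists were chosen with earlier results of these data known. Besides the 10 genes and ALKBH5, genes called with an absolute log2 fold change of 1 or more were named, filled to 4 per list by size of change at a mean of at least 1 CPM, plus IRAK2, IRAK3, TAB3 and IKBKG. CXCL8, CXCL2, CXCL3, CCL20 and the single marker genes were named after their values were seen.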

Additional observations from a re-analysis of the deposited data

How the results depend on the processing

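PELI2, IRAK1 and IRAK4 kept their direction and call in all 12 alternatives each, with log2 fold changes of -1.12 to -0.77, 0.26 to 0.31 and -0.33 to -0.26. Of the 120 alternative values of the 10 genes, 106 kept direction and side of the threshold, 6 lost the call (PELI3 in each case, including without a filter, adjusted p = 0.0559, and with limma, 0.0529 and 0.0512) and 8 changed sign. The sign changed for uncalled genes near 0: PELI1 (-0.0034 to 0.1128 with each library left out), TAB1 (-0.059 to 0.0306) and TRAF6 (-0.0511 to 0.0539, and 0.0030 with DESeq2, 0.0003 with its size factors, 0.0040 without a filter and 0.0006 with the replicate block). With an absolute log2 fold change of 1 or more required, 0 of the 10 genes were lower and 0 higher, and 1 of the 76 other pathway genes was lower and 0 higher. DESeq2 called 13 of these lower, beside 10.9% of all genes. The difference between PELI1 and PELI3 no longer excluded 0 with DESeq2 (0.3821) or when any 1 of 3 libraries was left out (0.3437 to 0.4214 over the 4 libraries). The cause of these shifts was not tested. Of 284 alternative values of 24 named pathway genes, 259 kept their side and 25 lost the call. Libraries of the same number share a deposited table, but the labels name no culture or batch that they share, and r was 0.107 between their deviations over 9259 genes. With the replicate block, 3 of the 10 genes were lower and 1 higher, and 21 and 9 of the other pathway genes, beside 18.8% and 20.5% of all genes. At this depth, 76 of the 93 pathway genes had enough counts to be tested. limma gave no value for IRAK2 and SARM1, whose FPKM were under its minimum of 1. limma on log2(FPKM + 1) gave 0.5526 for CCL2 and -0.3812 for IL1R1, and with either pseudocount the calls of TRAF3, IL1RAP, MAPK8, RIPK3 and IER3 were lost.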
